A study of Homo sapiens with 16 samples.

Results

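The IGF2BP, LIN28 and HMGA genes are called oncofetal because they are used in embryonic cells, fall silent or low in most adult tissues and reappear in tumours. The 7 genes IGF2BP1, IGF2BP2, IGF2BP3, LIN28A, LIN28B, HMGA1 and HMGA2 were found by symbol among the 43836 genes of the count table. They were chosen because IGF2BP1 was on in FOXM1 knockdown libraries and off in libraries of control cells, so the difference between knockdown and control cells is described here and not tested for these genes. Of the 7 genes, 5 had at least 10 counts in 2 or more of the 16 libraries, and the other 2, LIN28A and LIN28B, did not.

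IGF2BP proteins bind mRNAs, many of them marked with N6-methyladenosine (m6A), and protect, localize or translate them. LIN28 proteins bind the precursors of the let-7 microRNAs and block their maturation. Mature let-7 in turn represses mRNAs that carry matches to its seed, among them those of HMGA2, IGF2BP1, LIN28A and LIN28B. HMGA proteins bind the minor groove of AT-rich DNA and bend chromatin. In blood, LIN28B and IGF2BP genes are known for the fetal type of stem and progenitor cells.

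RNA was sequenced from KG-1, an established human acute myeloid leukaemia cell line, with 2 libraries for each of 8 conditions. Control cells (KG-1-Control) carried a non-target shRNA, and FOXM1-KD cells carried an shRNA against FOXM1, a forkhead transcription factor of the cell cycle. Both were made with lentiviral particles and then selected with puromycin, so all groups share the viral vector and the selection. Only 1 transduction of each genotype is described. In every comparison of FOXM1-KD with control cells, an effect of the knockdown and a difference between the transduced pools cannot be told apart. The words "in the knockdown" below name these cells and not a cause. Control cells received DMSO (0.3%, 48 h), the FOXM1 inhibitor STL427944 (50 µM, 48 h), the nucleoside analogue AraC (0.75 µM, 48 h), the BCL2 inhibitor venetoclax (100 nM, 48 h) or the AKT inhibitor MK-2206 (30 µM, 24 h). FOXM1-KD cells received DMSO, AraC or venetoclax at those doses and times. The study's methods call the paired libraries of a condition biological replicates without saying whether cultures or days were separate, and the p-values measure the spread between them.

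Library totals ran from 12621145 to 21362546 counts, and were 7351755 and 10330720 in the MK-2206 libraries. FOXM1 itself had 2554 and 2515 counts in control cells with DMSO and 923 and 1551 in FOXM1-KD cells with DMSO, with -1.08 as the log2 fold change (standard error 0.281, adjusted p = 0.056, edgeR's quasi-likelihood test). The same test gave -0.56 (adjusted p = 0.0124) in AraC and -1.20 (adjusted p = 0.0113) in venetoclax. The 7 markers of blood cells were all present in every library. The 6 FOXM1-KD libraries and the 2 MK-2206 libraries stood apart from the 8 other libraries of control cells. CD34, the surface antigen by which KG-1 is known, had 12483 to 28951 counts in those 8 libraries, 0 to 4 in FOXM1-KD cells and 7 and 18 after MK-2206. Of 111 protein-coding genes with at least 100 counts in every FOXM1-KD library and at most 3 in each of those 8, IGF2BP1 included, 105 had at least 10 counts in both libraries labelled MK-2206. Of 170 genes with the opposite pattern, 57 had at most 3 counts in both MK-2206 libraries and 17 had at least 10. The share of all genes within these limits is not given here. The MK-2206 libraries had 21430 and 24957 genes with at least 1 count, and the other 14 libraries 18674 to 20568. The libraries labelled MK-2206 thus held counts for most genes on in FOXM1-KD cells and lacked them for part of the genes off there. Without the share of all genes, it cannot be said whether this likeness is particular to the knockdown. Their label names them control cells. Whether they hold control cells was not tested. In all comparisons with them, a response to the drug and a difference between the cells cannot be told apart. The summed level of 5 stem and progenitor markers was 1466 to 2313 CPM in the 8 control libraries, 35.5 to 274.5 in FOXM1-KD cells and 64.3 and 95.2 after MK-2206. CPM are a gene's counts scaled to 1000000 counts of the TMM-adjusted library total. The sum of 5 monocyte markers was 7.20 to 46.7, 553.6 to 2716, and 15.3 and 17.3 CPM in the same order, so MK-2206 lay within the control range. FOXM1 itself had 112 to 181, 48.8 to 121, and 19.8 and 21.7 CPM in that order. Erythroid and megakaryocytic markers summed to 15.9 to 68.0, 10.9 to 18.9, and 45.5 and 62.1 CPM, and lymphoid markers to 8.55 to 22.7, 0.179 to 2.30, and 2.66 and 3.86. Markers of epithelial cells and of fibroblasts each summed to at most 0.944 CPM in the other libraries and to between 2.29 and 4.57 CPM after MK-2206. The part of these differences in the results on the oncofetal genes was not tested. In bulk RNA, fewer cells of a type and less RNA per cell cannot be told apart.

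The let-7 family is shown first, since its seed is what ties the LIN28, HMGA and IGF2BP genes together. The mature sequences from RefSeq (GRCh38.p14) follow, 5′ to 3′, with the seed, bases 2 to 8, in capitals.
hsa-let-7a-5p: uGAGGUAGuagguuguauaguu
hsa-let-7b-5p: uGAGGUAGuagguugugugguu
hsa-let-7e-5p: uGAGGUAGgagguuguauaguu
hsa-let-7g-5p: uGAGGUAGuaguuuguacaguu
hsa-let-7i-5p: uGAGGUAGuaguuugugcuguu
hsa-miR-98-5p: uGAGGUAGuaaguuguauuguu
All 6 share the seed GAGGUAG and differ only behind it. LIN28 proteins are known to recognize the letters GGAG in the loop of let-7 precursors. Of the 12 let-7 and miR-98 hairpins of RefSeq, 9 hold these letters at any position. That is not a count of loops, since the mature let-7e above holds GGAG itself. The hairpin of let-7g (chr3:52268278-52268361, minus strand) is given with those letters in capitals.
MIRLET7G hairpin: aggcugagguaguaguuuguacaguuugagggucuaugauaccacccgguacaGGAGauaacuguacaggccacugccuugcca

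The letters CTACCTC, which pair with the seed, were searched on the sense strand of the 3' untranslated region of each gene's canonical GENCODE transcript. IGF2BP1, LIN28B and HMGA2 held 4 matches each, and IGF2BP2, IGF2BP3, LIN28A and HMGA1 held 1 each. At least 1 match was present in 9.76% of 19550 such regions, in 17.9% of the 8463 that were at least as long as the shortest of the 7 (1347 bases, HMGA1), and 3 or more matches in 0.184%. A match is a description of the letters and not a measured site, and mature let-7 was not analysed here. The windows below show the matches of the genes that differed most between libraries, in GRCh38, with the match in capitals.
IGF2BP1 match 1, chr17:49051061-49051083, plus strand: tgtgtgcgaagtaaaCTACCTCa
IGF2BP1 match 2, chr17:49053698-49053720, plus strand: cagcagtgctagtaaCTACCTCa
IGF2BP1 match 3, chr17:49054352-49054374, plus strand: gtataaatggattaaCTACCTCa
IGF2BP1 match 4, chr17:49054997-49055019, plus strand: tcacttttgttttatCTACCTCt
IGF2BP2 match, chr3:185644220-185644242, minus strand: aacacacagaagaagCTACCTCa
IGF2BP3 match, chr7:23311795-23311817, minus strand: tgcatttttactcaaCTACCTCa
HMGA2 match 1, chr12:65963298-65963320, plus strand: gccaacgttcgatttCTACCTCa
HMGA2 match 2, chr12:65964533-65964555, plus strand: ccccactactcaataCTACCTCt
HMGA2 match 3, chr12:65964945-65964967, plus strand: ttgacttgcaaagacCTACCTCc
HMGA2 match 4, chr12:65965798-65965820, plus strand: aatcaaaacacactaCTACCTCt
IGF2BP1 and HMGA2 carry the same number of matches. Any part of let-7 in the levels of these genes was not tested.

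IGF2BP1 (chromosome 17, 48997385 to 49056145, plus strand) encodes the member of the family known for stabilizing MYC mRNA. It had 0 counts in both libraries of control cells with DMSO, STL427944 and venetoclax, and 0 and 2 with AraC. The FOXM1-KD libraries had 5287 and 4974 counts with DMSO, 4562 and 4900 with AraC, and 4318 and 4484 with venetoclax. These values chose the gene, and the groups do not overlap. Against a floor of 3 counts per library, the level in FOXM1-KD cells was at least 1646-fold higher with DMSO, at least 1770-fold with AraC and at least 1658-fold with venetoclax. The MK-2206 libraries, which the labels place among control cells, had 804 and 974 counts. IGF2BP1 was therefore not off in every library labelled as control cells, and its level in the libraries labelled MK-2206 was at least 690.7-fold higher than the floor with DMSO. Ordered by level, the 3 FOXM1-KD conditions came first with 281 ± 19.3, 271 ± 12.3 and 264 ± 7.90 CPM (SD, n = 2) for venetoclax, DMSO and AraC, with ranges that overlapped. MK-2206 followed at 114 ± 1.60 CPM, apart from both its neighbours.

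IGF2BP2 (chromosome 3, 185643130 to 185825042, minus strand) is the family member most widely kept in adult tissue. The 8 control libraries without MK-2206 had 2842 to 4971 counts, with a median of 3648.5. The 6 FOXM1-KD libraries had 27 to 118 counts, with a median of 79, and the MK-2206 libraries had 102 and 151. Every FOXM1-KD and MK-2206 library was below every other control library. The log2 fold change between FOXM1-KD and control cells was -5.61 (standard error 0.422) with DMSO, -4.84 (0.25) with AraC and -6.88 (0.502) with venetoclax, given without a test. The value with DMSO was -6.37 without FOXM1-KD DMSO replicate 1 and -5.14 without replicate 2. In CPM the order ran from 219 ± 22.1 (control, DMSO) over 215 ± 38.5 (venetoclax), 202 ± 6.92 (STL427944) and 167 ± 4.74 (AraC) to 16.0 ± 2.04 (MK-2206), 6.00 ± 0.522 (FOXM1-KD, AraC), 4.47 ± 2.51 (FOXM1-KD, DMSO) and 1.82 ± 0.0378 (FOXM1-KD, venetoclax). The first 3 overlapped with their neighbours, as did the AraC and DMSO conditions of FOXM1-KD cells.

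IGF2BP3 (chromosome 7, 23310209 to 23470491, minus strand), a marker of poor outcome in many tumours, was high in the same libraries as IGF2BP1. The 8 control libraries had 17 to 102 counts, with a median of 89. The 6 FOXM1-KD libraries had 1197 to 2222, with a median of 1753.5, and the MK-2206 libraries had 605 and 689. No FOXM1-KD or MK-2206 library overlapped with the other control libraries. The log2 fold changes between FOXM1-KD and control cells were 4.37 (standard error 0.173), 4.43 (0.265) and 4.69 (0.476) with DMSO, AraC and venetoclax. Unlike IGF2BP1, the gene was measured in all 16 libraries. Its lowest value, 17 counts, was in 1 of the STL427944 libraries, whose partner had 90. FOXM1-KD cells with DMSO had the highest mean, 107 ± 14.9 CPM, followed by AraC at 96.0 ± 7.07, venetoclax at 91.0 ± 13.0 and MK-2206 at 83.0 ± 4.79, and each overlapped with its neighbour in this order. The 4 remaining conditions lay between 3.00 ± 2.57 and 5.19 ± 0.513 CPM and overlapped.

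**Figure D1:**
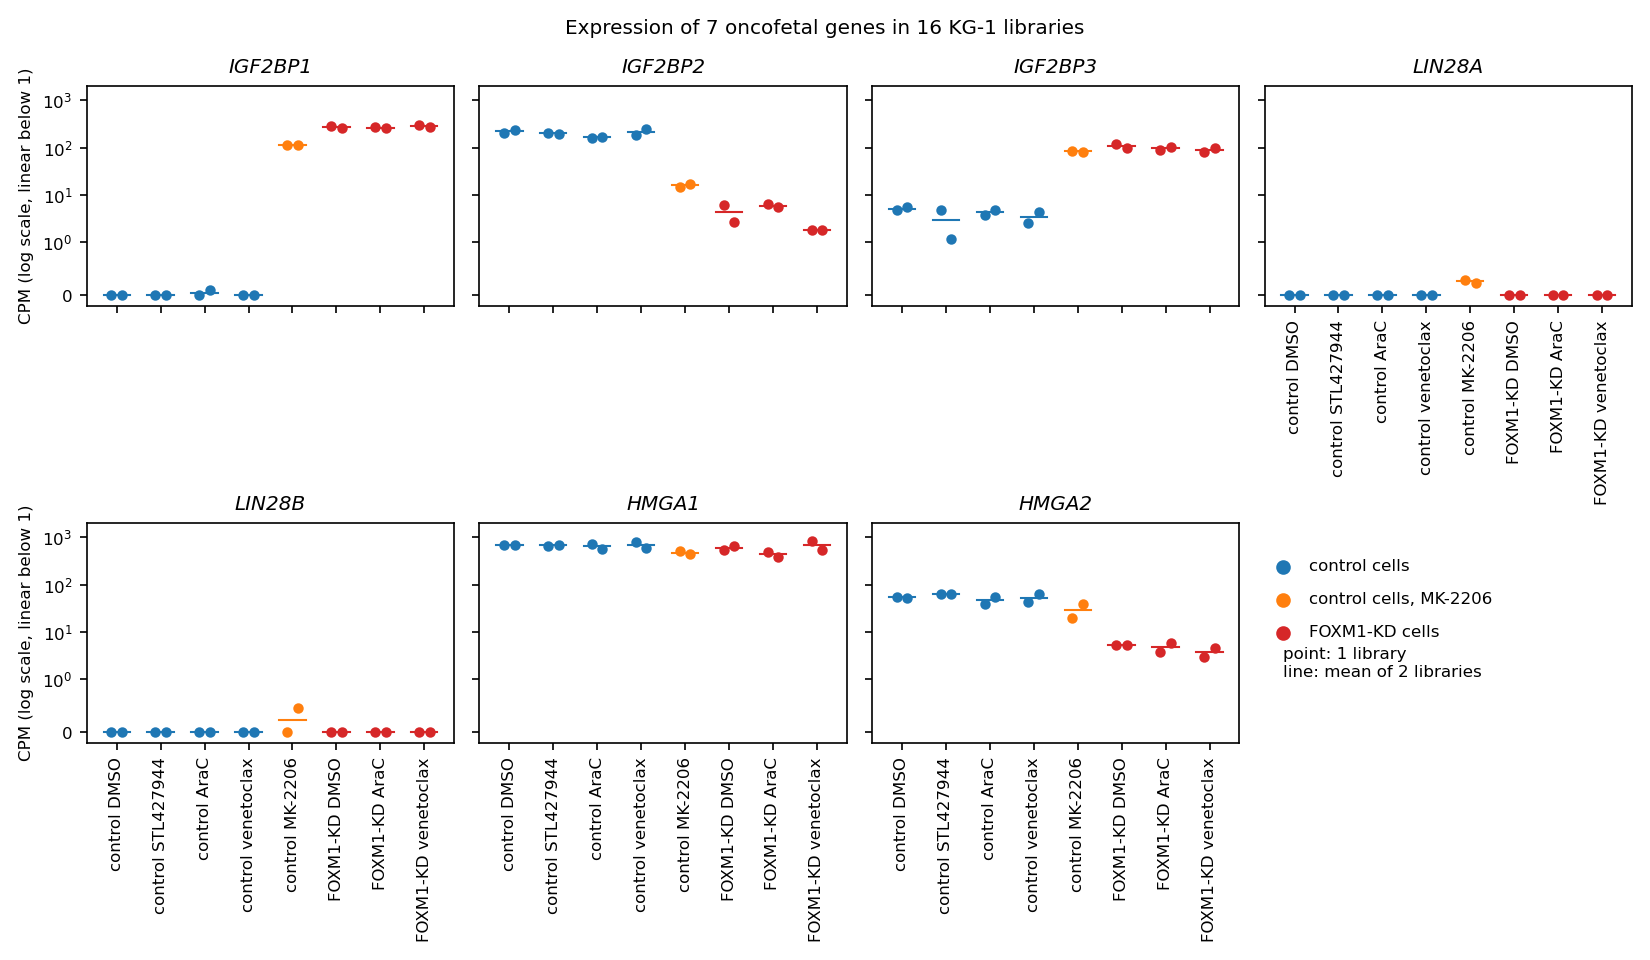
CPM of the 7 oncofetal genes in each of the 16 libraries, on an axis that is logarithmic above 1 and linear below, by condition. Points are libraries and lines the means of 2. IGF2BP1 and IGF2BP3 sit high and IGF2BP2 low in the FOXM1-KD and MK-2206 libraries, HMGA2 is lowest in FOXM1-KD cells, and LIN28A and LIN28B stay at or near 0.

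Per kilobase of exon, the 3 IGF2BP genes made up different shares of a sum that overlapped between control and FOXM1-KD cells. The sum was 31.1 to 46.0 CPM per kilobase in the 8 control libraries and 39.1 to 44.0 in the 6 FOXM1-KD libraries, which lie inside the control range. IGF2BP2 made up 98.2 to 99.6% of the sum in the control libraries and 0.843 to 3.00% in FOXM1-KD cells. IGF2BP1 made up 66.0 to 75.5% in FOXM1-KD cells, and IGF2BP3 made up 23.6 to 31.3%. The MK-2206 libraries held a mixture of all 3 genes at a lower sum, 24.3 and 24.8 CPM per kilobase. There IGF2BP1 took 48.1%, IGF2BP3 38.4 and 40.9%, and IGF2BP2 11.0 and 13.5%. These shares and sums depend on the length assigned to each gene. With the canonical transcript in place of all exons, a choice made after the values were seen, IGF2BP1 took 54.3% and IGF2BP3 43.9% in FOXM1-KD cells with DMSO. The mean sum was then higher in every FOXM1-KD condition, at 53.7 to 56.9 CPM per kilobase, than in the control conditions without MK-2206, at 40.0 to 52.4. In MK-2206 the order of the leading pair then turned, with 35.8% for IGF2BP1 and 53.8% for IGF2BP3.

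**Figure D2:**
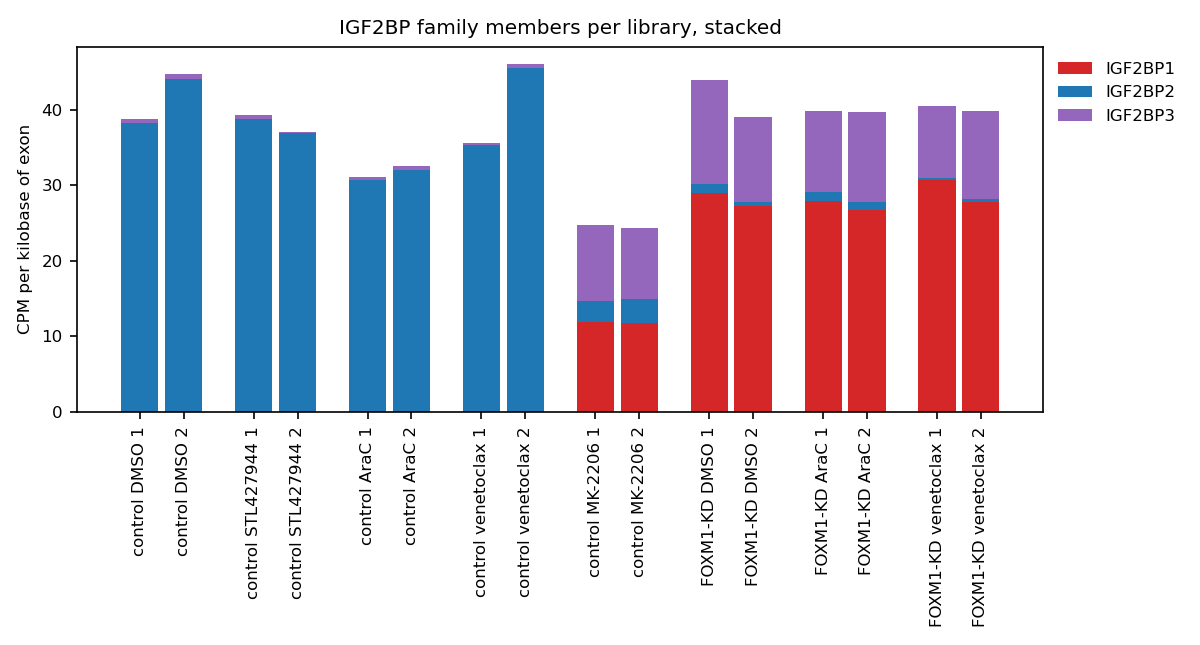
Level of IGF2BP1, IGF2BP2 and IGF2BP3 in CPM per kilobase of exon, stacked, with 1 bar for each of the 16 libraries. Bars of control cells consist almost wholly of IGF2BP2 and those of FOXM1-KD cells of IGF2BP1 and IGF2BP3, while the MK-2206 bars are shorter, at 24.3 and 24.8, and hold all 3.

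LIN28A (chromosome 1, 26410817 to 26429728, plus strand) and LIN28B (chromosome 6, 104936616 to 105083332, plus strand) encode the let-7 blocking proteins. Both had 0 counts in all 14 libraries without MK-2206. A count of 0 allows up to 0.143 to 0.208 CPM in these libraries, with counting error alone considered. After MK-2206, LIN28A had 2 counts in each library and LIN28B had 0 and 4. No fold change is given, because both genes were at or next to the floor in every condition.

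HMGA1 (chromosome 6, 34236873 to 34246231, plus strand) had the highest level of the 7 genes per kilobase, 164 to 351 CPM per kilobase over all libraries. The 8 control libraries had 10070 to 13800 counts, the FOXM1-KD libraries 7242 to 12229, and the MK-2206 libraries 3599 and 3785. In CPM the control and FOXM1-KD libraries overlapped, at 576 to 796 and 381 to 816. The log2 fold changes between FOXM1-KD and control cells were -0.21 (standard error 0.137), -0.61 (0.162) and -0.04 (0.334) with DMSO, AraC and venetoclax. None reached 2-fold, whereas 50.5% of the 23274 genes in the comparison with DMSO did so when no test was asked for. Those genes needed only 1 count to enter, and the share among genes counted as well as HMGA1 is not given. Processed copies of HMGA1 exist in the genome, so its count is uncertain where reads fit both. From 701 ± 134 (control, venetoclax) to 589 ± 79.4 CPM (FOXM1-KD, DMSO), neighbouring conditions overlapped. MK-2206 at 476 ± 54.1 and FOXM1-KD cells with AraC at 434 ± 74.2 CPM overlapped with each other and stood below the rest. For MK-2206 this depended on the scaling. With DESeq2's size factors in place of TMM its libraries, at 615 and 505 CPM, overlapped with FOXM1-KD cells with DMSO, at 520 and 624.

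HMGA2 (chromosome 12, 65824460 to 65966291, plus strand), the classic let-7 target, was low in FOXM1-KD cells, as IGF2BP2 was, and less so in the MK-2206 libraries. The 8 control libraries had 668 to 1273 counts, with a median of 989.5. The 6 FOXM1-KD libraries had 43 to 113, with a median of 90, and the MK-2206 libraries had 137 and 337. The log2 fold changes between FOXM1-KD and control cells were -3.31 (standard error 0.13) with DMSO, -3.31 (0.265) with AraC and -3.80 (0.477) with venetoclax. FOXM1-KD values lay below all others. The MK-2206 libraries had 19.6 and 38.95 CPM, the higher of them next to the lowest other control library at 39.4 (AraC). The control conditions ran from 63.9 ± 0.126 (STL427944) over 54.3 ± 2.20 (DMSO) and 52.5 ± 13.5 (venetoclax) to 46.8 ± 10.4 CPM (AraC), with MK-2206 at 29.3 ± 13.7. The last 3 control conditions before MK-2206 overlapped with their neighbours, STL427944 stood apart, and MK-2206 was separated from AraC only by that narrow gap. With DESeq2's size factors in place of TMM, MK-2206 (23.4 and 45.0 CPM) and AraC (38.8 and 53.2 CPM) overlapped. FOXM1-KD cells had 5.44 ± 0.0114 with DMSO, 4.83 ± 1.58 with AraC and 3.77 ± 1.17 CPM with venetoclax, with ranges that overlapped. Of the 7 genes, 4 (IGF2BP1, which chose the set, IGF2BP2, IGF2BP3 and HMGA2) differed by 2-fold or more between FOXM1-KD and control cells in each of the 3 treatments. For each treatment alone, 50.5%, 53.3% and 56.4% of all genes with at least 1 count did so. The share of genes that did so in all 3 is not given.

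The comparison of MK-2206 with DMSO in control cells asks what the AKT inhibitor does in cells labelled as the same. The libraries labelled MK-2206 resembled FOXM1-KD cells in CD34. They also did so in most genes on and in part of those off in the knockdown, where the share of all genes is not given. They did not resemble them in the monocyte markers. Every value below therefore compares these libraries and is not shown to be an effect of the drug. The comparison shares its DMSO libraries with the knockdown comparison, and drug and time of treatment cannot be told apart. IGF2BP2 fell by 3.70 on the log2 scale (standard error 0.304, adjusted p = 1.03e-32), and IGF2BP3 rose by 4.07 (0.328, adjusted p = 7.04e-34). Both were lower or higher in 2 of 2 libraries. The values for HMGA1 were -0.46 (0.24, adjusted p = 0.106) and for HMGA2 -0.81 (0.29, adjusted p = 0.0131), under the 2-fold limit. A gene was called at an adjusted p below 0.1 and a change of 2-fold or more, so 2 of the 4 genes tested were called, against 44.0% of all 28905 genes. The median of protein-coding genes with a mean of at least 10 counts was itself -0.29 with TMM, -0.51 with total counts and -0.18 with DESeq2's size factors. HMGA2 was called with total counts (-1.07, adjusted p = 0.00146) and without MK-2206 replicate 2 (-1.44, adjusted p = 0.0127), whereas without MK-2206 replicate 1 it was -0.43 and not called. Mitochondrial transcripts took 6.68 and 18.4% of counts in the MK-2206 libraries and 1.32 to 3.05% elsewhere, and their part in these changes was not tested.

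The other drugs asked whether the oncofetal genes respond to FOXM1 inhibition, to chemotherapy or to BCL2 inhibition. None of the 4 genes tested was called with STL427944, AraC or venetoclax in control cells, by edgeR or by DESeq2. Their log2 fold changes ran from -0.77 to 0.24 with STL427944, from -0.41 to -0.11 with AraC and from -0.55 to 0.05 with venetoclax. At an unadjusted p below 0.05 there were 0, 1 and 0 genes. Over all genes, 0 of 22672 were called with STL427944 by edgeR (0%; 281 at an unadjusted p below 0.05; 1 by DESeq2), 6.69% with AraC, and 0 of 22593 with venetoclax (0%; 188 at an unadjusted p below 0.05; 0 by DESeq2). IGF2BP2 had 3165 and 3583 counts with AraC against 3714 and 4274 with DMSO, or -0.41 on the log2 scale (standard error 0.122, adjusted p = 0.0326, lower in 2 of 2 libraries) that stayed under 2-fold. IGF2BP3 stood at -0.77 with STL427944 (0.604, adjusted p = 0.929), and was called without STL427944 replicate 1 (-2.10, adjusted p = 0.0874), but was at -0.11 without STL427944 replicate 2.

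In FOXM1-KD cells, 5 genes could be tested, and none was called with AraC or venetoclax by edgeR or DESeq2, while 11.6% and 2.09% of all genes were. At an unadjusted p below 0.05 there was 1 gene with each drug. IGF2BP1 stood at -0.12 on the log2 scale (standard error 0.253, adjusted p = 0.812) with AraC and 0.07 (0.295, adjusted p = 0.974) with venetoclax. Its libraries with either drug overlapped with those with DMSO. HMGA1 had the widest change with AraC, -0.52 (0.246, adjusted p = 0.174). IGF2BP2, already low, had 27 and 30 counts with venetoclax against 118 and 51 with DMSO, or -1.27 (0.478, adjusted p = 0.262). It was called with all 16 libraries in one fit (-1.29, adjusted p = 0.0232). Without FOXM1-KD DMSO replicate 1 the change was -0.56, and without replicate 2 it was -1.77, not called in either case. With AraC it had 108 and 107 counts, a change of 0.35 (0.372, adjusted p = 0.645), which became 1.06 (adjusted p = 0.0801) and was called without FOXM1-KD DMSO replicate 1, and -0.13 without replicate 2.

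The response to a drug was also compared between the genotypes with an interaction term over 8 libraries. None of the 4 genes tested was called in AraC or venetoclax by edgeR or DESeq2, against 5.13% and 0.743% of all genes, and 1 gene had an unadjusted p below 0.05 in each. That gene was IGF2BP2. Its AraC response was 0.84 higher on the log2 scale in FOXM1-KD than in control cells (standard error 0.304, adjusted p = 0.088), under 2-fold. Its venetoclax response was -1.26 (0.446, adjusted p = 0.339). The FOXM1-KD DMSO libraries that both terms use had 118 and 51 counts. Without replicate 1 of them the AraC term was 1.57 (adjusted p = 0.000133) and was called, and without replicate 2 it was 0.22. The venetoclax term was -1.75 without replicate 2 (adjusted p = 0.0601) and was called, and was -0.54 without replicate 1.

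**Figure D3:**
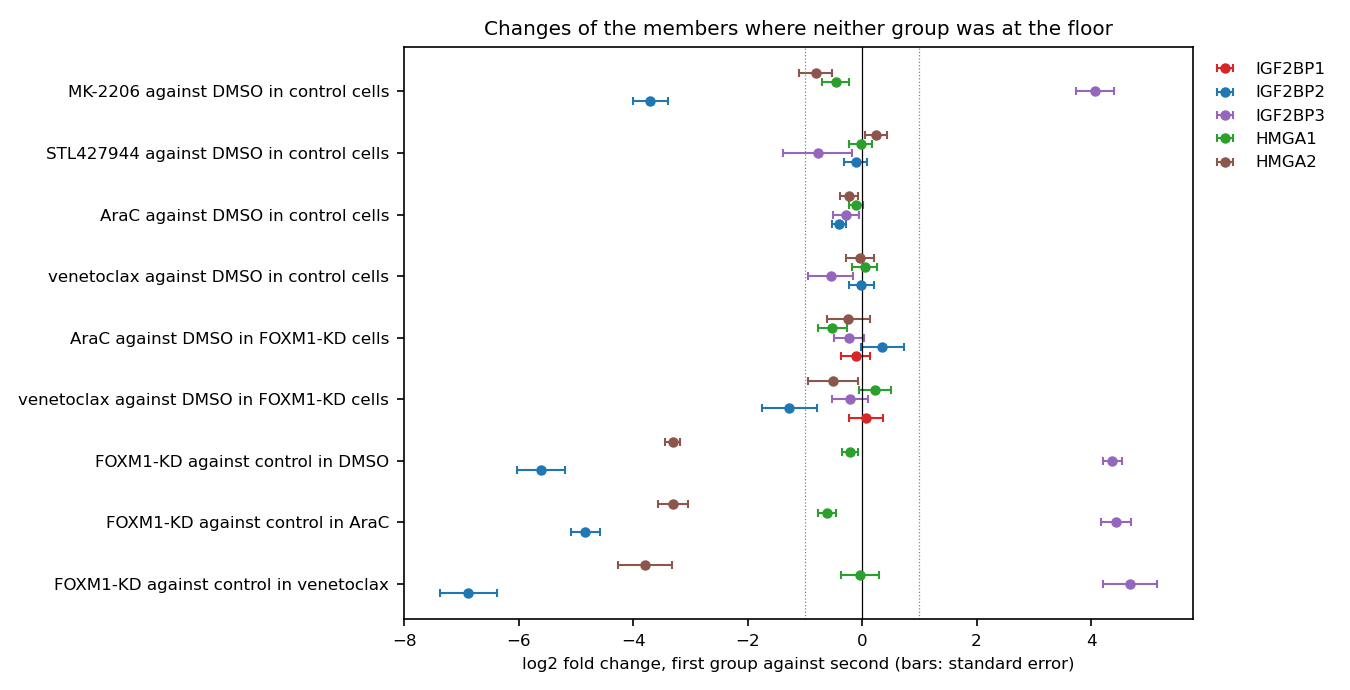
Log2 fold changes of IGF2BP1, IGF2BP2, IGF2BP3, HMGA1 and HMGA2 in 9 comparisons, first group against second, with bars of 1 standard error and dotted lines at 2-fold. A gene is left out where a group was at the floor. IGF2BP2 lies far left and IGF2BP3 far right in the 3 knockdown comparisons and with MK-2206, HMGA2 far left in the knockdown comparisons, and nearly all points of the other drugs lie within 2-fold.

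Pathway lists around the 7 genes held 90 genes, of which 89 were in the table. In FOXM1-KD against control cells with DMSO, 25 of the 81 tested were called, 9 higher and 16 lower, against 25.1% of all genes (11.3% higher, 13.7% lower). With AraC 27 of 83 were called (8 higher, 19 lower; 29.3% of all genes, 15.2% higher and 14.0% lower) and with venetoclax 20 of 81 (5 higher, 15 lower; 24.3%, 10.8% higher and 13.5% lower). With MK-2206 46 of 87 were called, 14 higher and 32 lower, against 44.0% (26.0% higher, 17.9% lower). The knockdown and MK-2206 comparisons share the DMSO libraries. The median log2 fold change of the lists was -0.09 in the knockdown with DMSO and -0.36 with MK-2206, beside -0.03 and 1.03 over all genes tested, many of them at low counts, and 0.018 and -0.29 over protein-coding genes with a mean of at least 10 counts.

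Among genes that process let-7, 3 of 15 (20%) were called in FOXM1-KD cells with DMSO and 9 of 15 (60%) with MK-2206. The shares of all genes were 25.1% and 44.0%. HNRNPA1, a splicing factor that binds let-7 precursors, rose from 12307 and 14175 to 35893 and 33226 counts in the knockdown (log2 fold change 1.34, standard error 0.117, adjusted p = 0.00408). It has many processed copies in the genome, so its count is uncertain. AGO2, the slicer of the RNA-induced silencing complex, fell from 9204 and 9242 to 3765 and 4121 counts (-1.27, 0.104, adjusted p = 0.00361). It also fell with MK-2206 (-1.19, adjusted p = 1.04e-05). TARBP2, the partner of DICER1, rose by 1.16 (adjusted p = 0.0486) in the knockdown and by 2.09 (adjusted p = 3.06e-11) with MK-2206. The uridylyltransferase TUT7, which marks let-7 precursors, had 1020 and 1197 counts with DMSO and 3279 and 9105 with MK-2206 (3.72, standard error 0.273, adjusted p = 1.61e-40). XPO5, the exporter of precursors, and DICER1 fell with MK-2206 as well (-1.49 and -1.46). In the knockdown none of these 3 was called.

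Of the let-7 host transcripts, 2 of 7 (28.6%) were called in the knockdown and 3 of 7 (42.9%) with MK-2206, near the 25.1% and 44.0% of all genes. MIR99AHG, the host of let-7c, had 193 and 174 counts with DMSO, 22 and 13 in FOXM1-KD cells (log2 fold change -3.43, adjusted p = 0.00422) and 7 and 4 with MK-2206 (-3.74, adjusted p = 2.58e-13). MIRLET7IHG, the host of let-7i, rose from 54 and 38 to 102 and 117 counts in the knockdown (1.20, adjusted p = 0.0375) and to 47 and 83 with MK-2206 in shallower libraries (1.77, adjusted p = 3.67e-05). A host transcript is not the mature microRNA. WDR82, whose intron holds let-7g, fell with MK-2206 (-1.17, adjusted p = 3.38e-05).

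Of 23 mRNAs known as let-7 targets, 10 (43.5%) were called in the knockdown with DMSO, 5 in each direction. With MK-2206 16 (69.6%) were called, 6 higher and 10 lower. The shares of all genes were 25.1% and 44.0%. TRIM71, an embryonic ubiquitin ligase that is itself a textbook let-7 target, had 2752 and 3085 counts with DMSO, 10 and 11 in FOXM1-KD cells (log2 fold change -8.15, standard error 0.175, adjusted p = 0.0011) and 6 and 9 with MK-2206 (-7.30, 0.407, adjusted p = 8.49e-70). Over all 16 libraries, the FOXM1-KD and MK-2206 libraries had 3 to 71 counts of TRIM71 and the 8 other control libraries 2279 to 5053, so they did not overlap. With AraC it rose in FOXM1-KD cells by 2.69 on the log2 scale (0.483, adjusted p = 1.04e-06). MYCN, a transcription factor of fetal and neural cells, had 184 and 232 counts with DMSO, 0 in all 6 FOXM1-KD libraries, and 0 and 2 with MK-2206. It was at least 72.05-fold lower in the knockdown (adjusted p = 0.00374) and at least 29.45-fold lower with MK-2206 (adjusted p = 1.04e-21). Going the other way, IGF1R, the receptor for IGF1 and IGF2, rose from 85 and 66 to 3792 and 2392 counts in the knockdown (5.31, 0.328, adjusted p = 0.00221) and by 4.10 with MK-2206 (adjusted p = 1.7e-33). CCND1, a D-type cyclin, had 0 counts in both DMSO libraries of control cells and 149 and 76 in the knockdown, at least 36.1-fold higher (adjusted p = 0.0127). THBS1, a secreted inhibitor of angiogenesis, had 9 and 5 counts with DMSO and 417 and 531 with MK-2206 (7.33, 0.426, adjusted p = 3.94e-64). The median log2 fold change of the list was 0.01 in the knockdown and -0.25 with MK-2206.

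**Figure D4:**
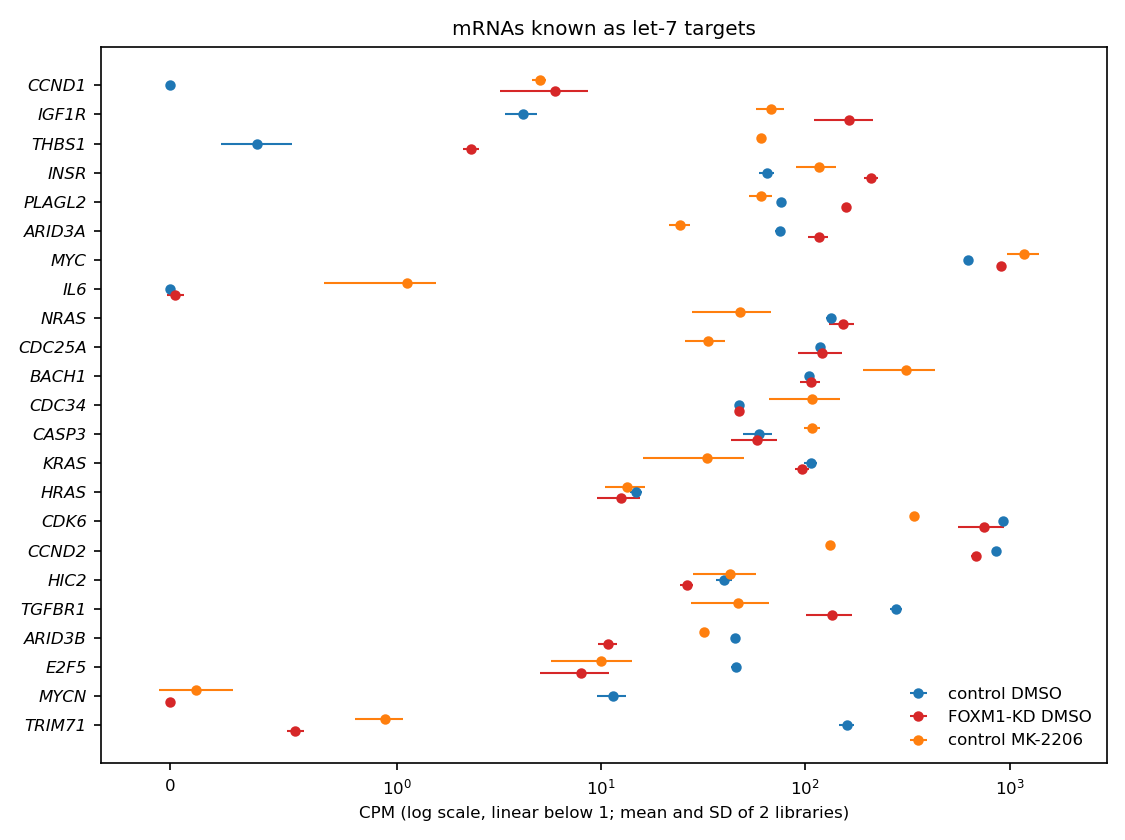
CPM of 23 mRNAs known as let-7 targets in control cells with DMSO or MK-2206 and in FOXM1-KD cells with DMSO, as mean and SD of 2 libraries, on an axis that is logarithmic above 1 and linear below. TRIM71 and MYCN are near 0 in FOXM1-KD and MK-2206 cells, and CCND1 is at 0 in control cells with DMSO.

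Of 16 mRNAs known to be bound by IGF2BP proteins, 4 of 15 tested (26.7%) were called in the knockdown with DMSO, all lower. This share was near the 25.1% of all genes. With MK-2206 9 of 16 (56.2%) were called, 2 higher and 7 lower, against 44.0% of all genes. FSCN1, an actin-bundling protein, fell from 5516 and 5782 to 130 and 79 counts in the knockdown (log2 fold change -5.80, standard error 0.273, adjusted p = 0.00151). ALDH1A1, a retinaldehyde dehydrogenase, had 181 and 180 counts with DMSO and 0 in FOXM1-KD cells with DMSO and after MK-2206, at least 62.5-fold lower in the knockdown (adjusted p = 0.00307) and at least 25.6-fold lower with MK-2206 (adjusted p = 1.01e-22). H19, an imprinted fetal RNA, had 38 and 40 counts with DMSO and 0 in all 6 FOXM1-KD libraries (at least 13.5-fold lower, adjusted p = 0.00781), and 5 and 2 with MK-2206 (-2.15, 0.671, adjusted p = 0.0039). BTRC, a subunit of a ubiquitin ligase, fell in the knockdown (-1.02, adjusted p = 0.0131). MYB, a transcription factor of blood progenitors, fell with MK-2206 (-3.00, standard error 0.28, adjusted p = 1.77e-25) and was not called in the knockdown. MAPK4, an atypical kinase, had 0 counts with DMSO and 27 and 32 with MK-2206 (at least 22.95-fold higher, adjusted p = 4.15e-16).

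Of 18 writers, erasers and readers of m6A, the mark that IGF2BP proteins recognize, 4 (22.2%) were called in the knockdown with DMSO, 1 higher and 3 lower. With MK-2206 5 (27.8%) were called, all lower. The shares of all genes were 25.1% and 44.0%. VIRMA, the scaffold of the methyltransferase complex, fell from 5775 and 5788 to 2293 and 2644 counts in the knockdown (log2 fold change -1.27, standard error 0.12, adjusted p = 0.00474) and to 193 and 475 with MK-2206 (-2.87, 0.282, adjusted p = 5.62e-23). The reader YTHDF3 fell in both (-1.52, adjusted p = 0.00307, and -1.94, adjusted p = 5.1e-12), as did the methyltransferase METTL16 (-1.08, adjusted p = 0.0257, and -2.29, adjusted p = 1.26e-13). CBLL1, another subunit of the writer complex, rose in the knockdown by 1.06 (adjusted p = 0.0108), and ELAVL1, an RNA-stabilizing protein, fell with MK-2206 (-1.96, adjusted p = 1.12e-11). Of 15 other fetal or embryonic genes, 4 of the 8 tested in the knockdown (50%) were called, all lower. With MK-2206 8 of 13 (61.5%) were called, 3 higher and 5 lower, against the same shares of all genes. Beside TRIM71 and H19, those called in the knockdown were DLK1, an imprinted growth regulator, and SALL4, a stem cell transcription factor. These 4 were also called lower with MK-2206, and the 3 genes called higher there are not named here. The median log2 fold change of the list was -4.75 in the knockdown and 2.96 with MK-2206, beside -0.03 and 1.03 over all genes tested. Genes at the floor enter both medians. In the knockdown only PLAG1 (-0.99, not called) and TRIM71 had neither group at the floor. The median there is thus set mostly by genes with few or no counts and does not measure the size of a fall. DLK1 had 49 and 64 counts with DMSO, 0 in the knockdown and 2 and 2 with MK-2206. SALL4 had 15 and 20, 0, and 0 and 2.

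The 250 bases before the start of transcription are shown for IGF2BP3 and IGF2BP2, which lay on opposite sides of the comparison, since FOXM1 reaches promoters through forkhead letters or through the cell cycle element CHR. Both strands were searched for TTTGAA (CHR), TAAACA (forkhead) and CACGTG (E-box), which were present in 13.3%, 11.0% and 6.34% of 35116 such windows of RefSeq. The window of IGF2BP3 (GRCh38.p14, chr7:23470492-23470741, minus strand) held CHR letters on both strands and E-box letters, in capitals, and no forkhead letters.
IGF2BP3: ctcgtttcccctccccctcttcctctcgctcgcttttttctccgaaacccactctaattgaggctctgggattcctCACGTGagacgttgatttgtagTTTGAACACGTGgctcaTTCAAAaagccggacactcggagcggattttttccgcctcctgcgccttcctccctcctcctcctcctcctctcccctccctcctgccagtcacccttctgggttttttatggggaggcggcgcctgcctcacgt
For IGF2BP2 the window before the upstream start held none of the 3 motifs at a GC content of 81.6%. The window before its inner start (chr3:185821143-185821392, minus strand) held CHR and forkhead letters, the latter as TGTTTA.
IGF2BP2: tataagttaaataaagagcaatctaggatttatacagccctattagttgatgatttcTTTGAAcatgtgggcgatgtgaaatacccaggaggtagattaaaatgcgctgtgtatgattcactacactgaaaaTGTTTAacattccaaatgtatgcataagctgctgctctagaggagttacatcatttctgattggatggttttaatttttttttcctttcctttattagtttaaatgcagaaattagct
The windows of HMGA1 held none of the 3, and the inner one of LIN28B held E-box letters. IGF2BP1, HMGA2 and LIN28A were not analysed here. These letters are a description and no evidence of binding.

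Across the 16 libraries, the protein-coding genes whose log2 CPM followed each oncofetal gene most closely were ranked among 13653 genes by Pearson's r, given without a p because the libraries share conditions and the FOXM1-KD and MK-2206 libraries set the pattern. IGF2BP1 was followed most closely by KCNN2, a potassium channel (r = 0.9987), CDX2, a homeobox factor (0.9985), and PDE3B, a phosphodiesterase (0.9982). These 3 had 0 CPM in control cells with DMSO. For IGF2BP2 they were SCRN1 (0.9944), TRPS1, a GATA-type repressor (0.9935), and WWC3 (0.9932). For IGF2BP3 they were the integrin ITGA2 (0.9883), ARMCX6 (0.9857) and SPATS2L (0.982). HMGA2 was nearest to PCCA (0.9877), RNF19A (0.9851) and NLK (0.9829). HMGA1, the gene with the narrowest range, reached lower values with TMEM147 (0.927), the blood transcription factor LYL1 (0.8984) and CTDNEP1 (0.8943).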

How the data were processed

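The authors prepared strand-specific libraries after ribosomal RNA depletion in one batch, used STAR for alignment to hg38 and featureCounts for Ensembl genes, and the deposited counts are not normalized. Tool versions, the strand setting and any use of molecular identifiers in counting are not given in the sources used here, and the labels name another library kit than the methods. Counts were therefore taken as reads, and floors of 3 counts cover counting error only. Of 43836 rows, 43214 had a symbol in GENCODE release 44.

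The quasi-likelihood test of edgeR 4.0.16 (glmQLFit, glmQLFTest; prior count 0.125; R 4.3.3) followed TMM scaling, with the 4 libraries of a comparison, or 8 for an interaction, and every gene that reached 1 count. P-values were adjusted by the method of Benjamini and Hochberg. Calls needed an adjusted p below 0.1 and a change of 2-fold or more. Standard errors were derived from the F statistic. Code was tested on simulated data. Lengths are the union of GENCODE exons. Figures were drawn with matplotlib 3.10.9 in Python 3.11.15.

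The members, gene lists, markers and tests were chosen with earlier results of these data known. Named were the 7 genes, FOXM1, CD34, up to 4 called genes of largest change per list in the DMSO knockdown and MK-2206 comparisons with at least 10 counts in both libraries of one group, and the 3 genes most like each member. Genes named for one comparison are also given in others, and TRIM71 with AraC was added after its value was seen. The alternatives were DESeq2 1.42.0, total counts, DESeq2's size factors, filterByExpr, all 16 libraries in one fit, an adjusted p below 0.05, a prior count of 2, the replicate block and each library left out. Labels number the MK-2206, AraC and venetoclax libraries. The deviations of same-numbered libraries from the means were correlated, at 0.43 to 0.674 over 12827 genes in 10 pairs of groups, so the numbers pair these samples. The main tests held no replicate term, so their p-values do not use this pairing, and the replicate block was an alternative only. Replicates differed by more than sampling noise, by chi-square statistics of 8.58 to 103.3 per degree of freedom.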

Additional observations from a re-analysis of the deposited data

Results flagged for a closer look

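The AraC response of IGF2BP2 stood out in the test of the difference between the genotypes, by its adjusted p alone: the log2 fold change was -0.41 in control cells and 0.35 in FOXM1-KD cells, and the interaction term was 0.84 (edgeR's quasi-likelihood test, standard error 0.304, adjusted p = 0.088, 2 libraries a group), under the 2-fold limit, so it was not called. In control cells the gene was lower in 2 of 2 AraC libraries, at 163.6 and 170.3 CPM against 203.6 and 234.8 with DMSO. In FOXM1-KD cells the AraC libraries, at 6.37 and 5.63 CPM, overlapped with the DMSO libraries at 6.24 and 2.69. Over the alternatives, the libraries left out included, the term lay between 0.22 and 1.57, with an adjusted p of 0.000133 to 0.985. Without FOXM1-KD DMSO replicate 1 it was 1.57, and without FOXM1-KD DMSO replicate 2 it was 0.22.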

How the results depend on the processing

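With 2 libraries a group, precision is limited, most for IGF2BP2 in FOXM1-KD cells at 27 to 118 counts, and leaving one out leaves a lone library that is assumed to vary like the others. Over the alternatives IGF2BP2 with MK-2206 stayed between -3.93 and -3.54 and IGF2BP3 between 3.85 and 4.23, and both stayed called. The replicate block, possible where numbered groups are compared, gave 27 list genes called in the AraC knockdown comparison and 21 in venetoclax. The 7 genes were not tested in these comparisons. With all 16 libraries in one fit, 1 list gene was called with STL427944 and 1 member, IGF2BP2, with venetoclax in FOXM1-KD cells. The list genes called in the venetoclax interaction were 3, but 0 with DESeq2 or filterByExpr and 1 at an adjusted p below 0.05. Small changes that were never called turned in sign, and the cause was not tested: HMGA1 with STL427944 to 0.070 with total counts and 0.0051 with filterByExpr, IGF2BP2 with venetoclax to 0.0069 and 0.0051 with the same, and IGF2BP1 with AraC in FOXM1-KD cells to 0.047 with total counts. With each library left out, the log2 changes ranged as follows. In control cells, HMGA1 ran from -0.10 to 0.054 with STL427944, from -0.27 to 0.065 with AraC and from -0.18 to 0.25 with venetoclax, where IGF2BP2 ran from -0.19 to 0.14 and HMGA2 from -0.30 to 0.19. In FOXM1-KD cells, IGF2BP2 ran from -0.13 to 1.06 and HMGA2 from -0.63 to 0.064 with AraC, and IGF2BP1 from -0.0026 to 0.13 and HMGA1 from -0.084 to 0.48 with venetoclax. HMGA1 between genotypes in venetoclax ran from -0.35 to 0.22. In the interactions, IGF2BP3 ran from -0.14 to 0.32 and HMGA2 from -0.30 to 0.37 for AraC, and HMGA1 from -0.13 to 0.44 for venetoclax. Members called ranged from 0 to 1 with STL427944, with AraC in FOXM1-KD cells and in both interactions. List genes called ranged from 0 to 4 with STL427944, 0 to 5 with AraC in control cells, 0 to 10 with AraC and 0 to 3 with venetoclax in FOXM1-KD cells, 3 to 8 in the AraC interaction and 0 to 2 in the venetoclax interaction.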
